A study of Homo sapiens with 21 samples.

Results

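Interferon response genes were followed through 6 h of treatment with THZ1, a covalent inhibitor of the transcription kinase CDK7, in 4 human breast cancer cell lines. The set held 33 genes chosen by symbol from the array's annotation, of 18132 genes named there. Of these, 31 had a probe set assigned to a single gene and 28 were bright enough in at least one group to be tested. STAT2 and USP18 had no probe set with a single symbol, and OAS1, OAS3 and IFI44L stayed below the brightness filter in every group.

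The study measured RNA on 21 Affymetrix PrimeView arrays, in which short oligonucleotide probes report the brightness of labelled RNA. MDA-MB-468 and BT-549 are triple-negative lines, which lack oestrogen receptor, progesterone receptor and HER2 amplification. ZR-75-1 is oestrogen receptor positive, and T47D is positive for both the oestrogen and the progesterone receptor. Each line received THZ1 at 50 nM, THZ1 at 250 nM or the solvent DMSO, all in unmodified cells grown with serum. Each line and treatment had 2 arrays, except in BT-549, which had 1 array per treatment. No interferon, virus or other inducer was named in any group, so the levels described here are those of cultures with no added stimulus on record. Each line is a single established culture of tumour cells. The labels do not say whether the 2 arrays of a group came from separate cultures, so the p-values measure the spread between arrays, which may be technical.

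Interferons are secreted proteins that cells release on sensing foreign or misplaced nucleic acid. They bind surface receptors whose JAK1 and TYK2 kinases phosphorylate STAT2, which together with IRF9 is part of the transcription factor ISGF3. ISGF3 binds a short element rich in GAAA repeats in the promoters of the genes described here, whose products degrade viral RNA, modify proteins, hold back budding virus and present antigen. Many tumour lines express part of this set without added interferon.

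Promoter sequences are shown for 5 members on which the results below turn: IFIT5, DTX3L and IRF9, which were lower after THZ1, and ISG15 and BST2, which were higher in ZR-75-1. Each window covers 250 bases before to 50 bases after the annotated start, 300 bases in all, and is taken from RefSeq on GRCh38.p14. Capitals mark GAAA, any 2 bases and GAAA again, read on either strand (TTTC, any 2 bases and TTTC where the match is on the other strand). This is the core of the ISGF3 element, and overlapping matches were counted separately.
IFIT5 (chr10:89414318-89414617, plus strand): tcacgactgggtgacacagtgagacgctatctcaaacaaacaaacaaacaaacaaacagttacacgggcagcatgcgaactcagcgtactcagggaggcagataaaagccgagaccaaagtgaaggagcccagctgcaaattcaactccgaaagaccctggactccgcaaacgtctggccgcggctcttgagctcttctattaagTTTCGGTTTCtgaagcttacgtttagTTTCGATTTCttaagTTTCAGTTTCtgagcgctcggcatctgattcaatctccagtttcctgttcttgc
DTX3L (chr3:122564088-122564387, plus strand): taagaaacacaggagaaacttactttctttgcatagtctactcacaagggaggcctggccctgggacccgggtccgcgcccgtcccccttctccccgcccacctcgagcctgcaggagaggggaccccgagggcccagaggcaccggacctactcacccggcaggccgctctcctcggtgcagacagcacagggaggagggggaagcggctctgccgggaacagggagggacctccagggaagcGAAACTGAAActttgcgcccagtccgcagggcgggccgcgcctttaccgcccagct
IRF9 (chr14:24161015-24161314, plus strand): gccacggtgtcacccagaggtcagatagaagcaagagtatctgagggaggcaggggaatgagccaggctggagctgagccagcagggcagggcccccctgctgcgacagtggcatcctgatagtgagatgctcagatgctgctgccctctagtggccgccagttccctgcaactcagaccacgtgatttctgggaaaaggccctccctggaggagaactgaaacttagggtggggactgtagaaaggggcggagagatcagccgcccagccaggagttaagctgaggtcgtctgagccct
ISG15 (chr1:1013247-1013546, plus strand): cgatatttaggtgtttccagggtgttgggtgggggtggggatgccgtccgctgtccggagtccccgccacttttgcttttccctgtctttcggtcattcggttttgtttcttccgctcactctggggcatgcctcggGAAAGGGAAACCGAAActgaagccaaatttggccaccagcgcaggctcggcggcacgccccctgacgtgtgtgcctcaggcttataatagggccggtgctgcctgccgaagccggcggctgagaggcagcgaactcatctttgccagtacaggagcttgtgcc
BST2 (chr19:17405581-17405880, minus strand): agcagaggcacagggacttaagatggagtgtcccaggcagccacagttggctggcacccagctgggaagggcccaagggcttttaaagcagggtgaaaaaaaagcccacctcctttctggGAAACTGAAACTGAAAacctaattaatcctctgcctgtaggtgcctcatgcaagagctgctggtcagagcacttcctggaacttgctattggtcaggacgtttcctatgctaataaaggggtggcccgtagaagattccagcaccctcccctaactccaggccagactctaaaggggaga
The IFIT5 window held 3 matches, 45, 19 and 4 bases before the start. The ISG15 and BST2 windows each held 2 overlapping matches. The DTX3L window held 1, which begins 6 bases before its start. The same letters lie 41 bases before one of the annotated starts of PARP9, which is read in the opposite direction from a start 38 bases away. The IRF9 window held none. Among 27 members with a window in the table, 20 held the letters (74.1%), against 1195 of 27305 genes overall (4.38%). A match is a description of the sequence and not a measured binding site. IRF7, IFIT2, OAS2, OASL, MX2 and USP18 had no window in the sequences used and were not searched.

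Mean intensity was close on all 21 arrays, between 326 and 343, and replicate arrays correlated across genes at r of 0.991 to 0.993. The upper part of the distribution differed: the 75th percentile was 146 and 140.3 on the 2 ZR-75-1 arrays at 250 nM, against 207 and 200.4 in DMSO, and ranged from 140.3 to 231 overall. The line markers followed the labelled lines, with the oestrogen receptor gene ESR1 at 442 in ZR-75-1 and 906 in T47D under DMSO, and 30.9 in MDA-MB-468 and 18.4 in BT-549. PTPRC, the pan-leukocyte marker, was not above background in any line. Between 25 and 31 of the 31 measured members were above background on an array, meaning above the mean of that array's 23 background probe sets. With so few arrays per group, their number limits the precision of every value below. In bulk RNA, fewer expressing cells and less RNA per cell cannot be told apart.

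Under DMSO the lines had different levels of many members, and of many other genes, as the tests below show. BT-549, measured on 1 array, had the highest level of 14 of 31 members, ZR-75-1 of 7, MDA-MB-468 of 6 and T47D of 4. ZR-75-1 had the lowest level of 11 and T47D of 9. For the median member, the highest and lowest line lay 1.76 apart on the log2 scale. The same ranks and range over all genes are not given here. Levels are compared between lines for one probe set at a time and not between genes.

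**Figure D1:**
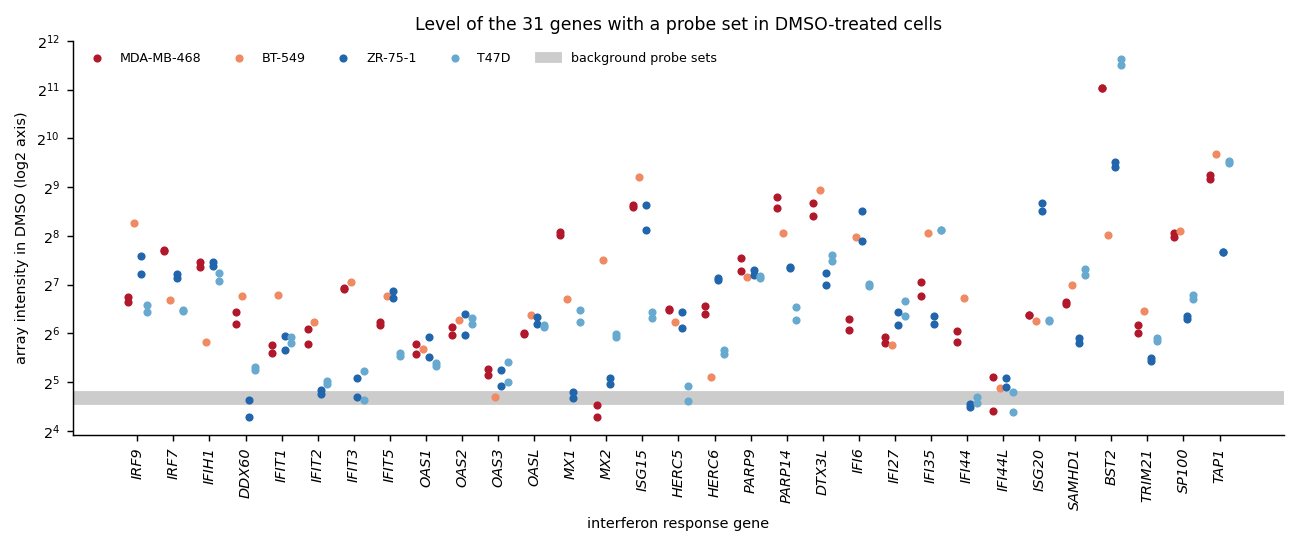
Log2 intensity of the 31 measured members in DMSO, one point per array, in 4 lines (2 arrays each, 1 for BT-549), with the range of the arrays' background levels in grey. BT-549 was the highest line for 14 members, and MX1 in ZR-75-1 lay in the background.

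MX1, a dynamin-like GTPase that blocks the replication of many RNA viruses, differed most between MDA-MB-468 and ZR-75-1. Its intensity was 261 and 272 in MDA-MB-468, 89.7 and 75.5 in T47D, 104 in BT-549 and 25.6 and 27.8 in ZR-75-1, where neither array was above background. The level in MDA-MB-468 was at least 9.81-fold that in ZR-75-1 (adjusted p = 1.18e-12), and 3.24-fold that in T47D (log2 difference 1.69 ± 0.12, SE). ISG15, a ubiquitin-like modifier, was 386 and 399 in MDA-MB-468, 279 and 396 in ZR-75-1, 594 in BT-549 and 86.2 and 79.9 in T47D. T47D was lower than both replicated lines, 4.73-fold below MDA-MB-468 and 4.01-fold below ZR-75-1, while MDA-MB-468 and ZR-75-1 overlapped (0.24 ± 0.14, adjusted p = 0.153).

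Other members had another order. BST2, also called tetherin, which holds budding virions on the cell surface, was 2086 and 2109 in MDA-MB-468, 3178 and 2909.7 in T47D, 682 and 732 in ZR-75-1 and 258 in BT-549. T47D was thus highest for BST2 and lowest for ISG15. ISG20, an exonuclease that degrades single-stranded RNA, was 406 and 365 in ZR-75-1 and between 75.9 and 83.6 on the arrays of the other lines, a log2 difference of 2.32 ± 0.09 for ZR-75-1 minus T47D. TAP1, a subunit of the peptide transporter that feeds class I molecules, was 573 and 605 in MDA-MB-468, 204 and 204 in ZR-75-1 and 719 and 744 in T47D. IFI6, which restrains cell death, was 79.0 and 67.6 in MDA-MB-468 and 239.7 and 367 in ZR-75-1, where the 2 arrays lay far apart. The log2 difference for MDA-MB-468 minus ZR-75-1 was -2.02 ± 0.15.

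By limma's moderated test with Benjamini-Hochberg adjustment over the 12644 genes tested, 14 members were higher and 6 lower in MDA-MB-468 than in ZR-75-1, against 35.5% and 30.5% of all genes. There were 13 members higher and 7 lower in MDA-MB-468 than in T47D (30.8% and 36.8% of all genes), and 9 were higher and 10 lower in ZR-75-1 than in T47D (25.9% and 37.1%). The median member difference was 0.38, 0.26 and -0.07 in these comparisons, against 0.05, -0.04 and -0.09 over all genes. PARP14, a mono-ADP-ribosyltransferase, was among those higher in MDA-MB-468, by 2.53-fold over ZR-75-1 and 4.86-fold over T47D. IFIT3, which partners IFIT1 in binding foreign RNA, was another, at 121 and 123 in MDA-MB-468, against 37.6 and 24.8 in T47D and at most 34.2 in ZR-75-1. Only 1 of 2 arrays was above background in each of ZR-75-1 and T47D, so no fold is given for IFIT3.

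Most tested members did not pass the test after THZ1. At 50 nM, 3 members were lower and 1 higher in MDA-MB-468, against 14.6% and 4.42% of all genes tested. In ZR-75-1 the counts were 1 lower and 1 higher (5.68% and 2.79% of all genes), and in T47D 2 lower and 1 higher (7.56% and 1.99%). At 250 nM, 5 members were lower and 2 higher in MDA-MB-468 (30.3% and 9.54% of all genes), 4 were lower and 4 higher in ZR-75-1 (42.8% and 9.93%), and 7 were lower and 1 higher in T47D (33.7% and 9.61%). The 50 nM and 250 nM comparisons of a line share its DMSO arrays.

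The median member changed by -0.04 in MDA-MB-468, -0.01 in ZR-75-1 and -0.02 in T47D at 250 nM on the log2 scale, against medians of -0.07, -0.18 and -0.08 over all genes. Of the 28 tested members, 15 passed the test in at least 1 comparison with DMSO within a replicated line. The other 13 passed in none: DDX60, HERC6, IFI27, IFI44, IFIT1, IFIT2, IFIT3, MX2, OAS2, OASL, PARP14, SAMHD1 and TAP1. At 250 nM, DTX3L, IFIT5, IRF9 and PARP9 were called lower in each of the 3 replicated lines, as were 23% of all genes. No member was called higher in each of them at that dose (3.59% of all genes), and none was called lower in each at 50 nM (2.83% of all genes).

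**Figure D2:**
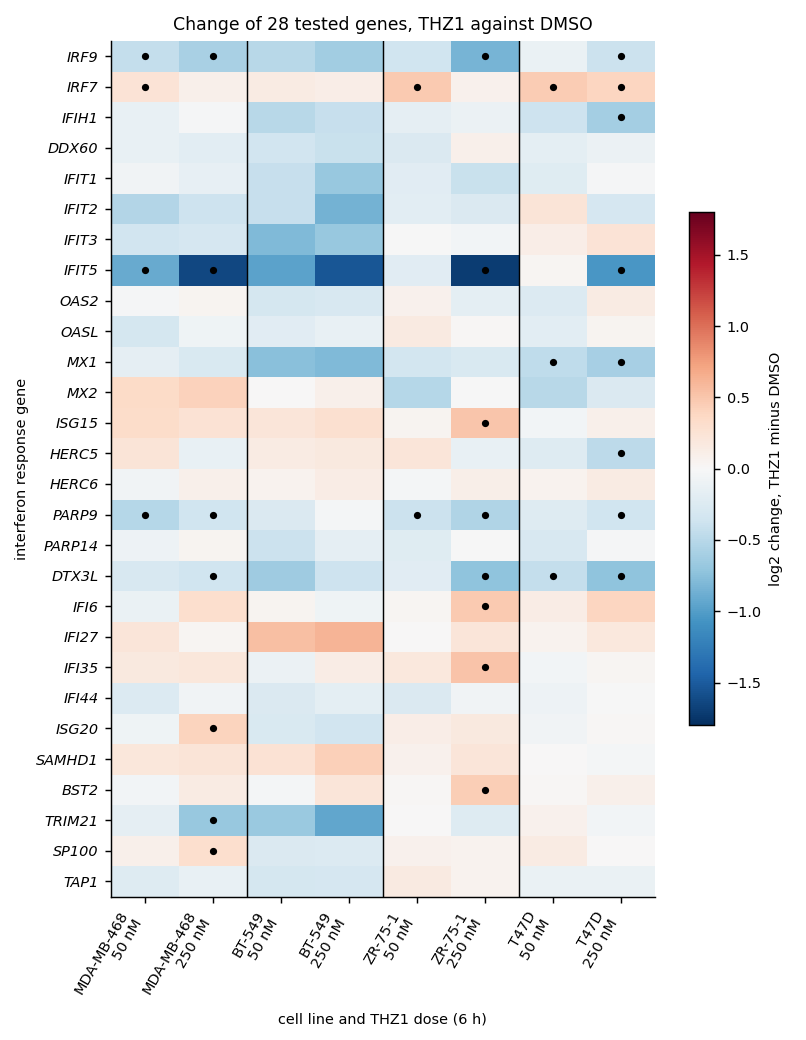
Log2 change from DMSO of the 28 tested members (down the page, by role) at 50 and 250 nM in 4 lines (across). Colour gives the change, and dots mark adjusted p under 0.05 in the 3 lines with replicates. IFIT5 at 250 nM has the deepest colour, between -1.05 and -1.71. In MDA-MB-468 and T47D it was not above background at 250 nM, so its size there is limited by background.

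These counts depend on how arrays are scaled to each other, which the sources used here do not state for the deposited values. Centring each array on its median moved the median change of all genes at 250 nM to 0.14 in MDA-MB-468, 0.08 in ZR-75-1 and 0.05 in T47D, and quantile normalization moved it to 0.09, 0.09 and 0.07. With centring, 3 members were lower and 9 higher in MDA-MB-468 (21.5% and 27.3% of all genes), 4 were lower in T47D against 2 higher (25.7% and 19.2%), and 10 were higher in ZR-75-1 (28.4%). With quantile normalization, 10, 14 and 5 members were higher across MDA-MB-468, ZR-75-1 and T47D, against 24.2%, 32.8% and 26.3% of all genes. Under both of these scalings IFI35, IFI6, IRF7, ISG15, MX2 and SAMHD1 joined the higher members in MDA-MB-468, as did HERC6, IRF7, ISG20, SAMHD1, SP100 and TAP1 in ZR-75-1 and IFI6 in T47D.

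**Figure D3:**
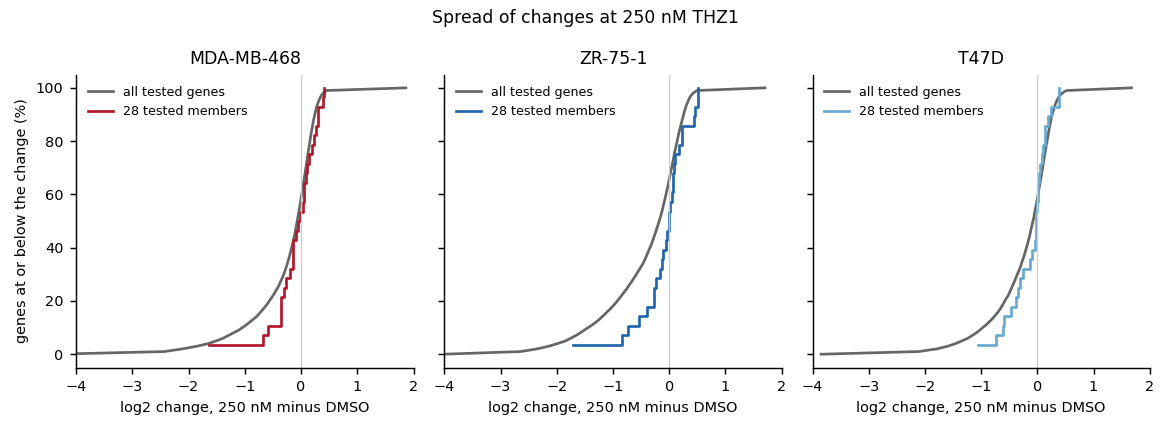
Cumulative percentage of genes at or below a given log2 change at 250 nM, for the 28 tested members and all 12644 tested genes, in 3 lines. Past a 2-fold decrease the members' curve holds only IFIT5 in each line, and the medians are -0.04, -0.01 and -0.02 against -0.07, -0.18 and -0.08. IFIT5 was not above background at 250 nM in MDA-MB-468 and T47D, so its place on those curves is limited by background.

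Among the transcription factors, IRF9 fell at 250 nM and IRF7 rose at 50 nM in each replicated line. IRF9 is the DNA-binding subunit of ISGF3. In MDA-MB-468 its intensity was 99.4 and 108 in DMSO, 79.1 and 74.9 at 50 nM, and 72.9 and 65.0 at 250 nM. In ZR-75-1 it was 149 and 193 in DMSO, 121 and 145 at 50 nM, and 100.0 and 89.4 at 250 nM. In T47D it was 86.8 and 95.9 in DMSO, 84.8 and 83.8 at 50 nM, and 69.7 and 70.2 at 250 nM. All 250 nM arrays lay below the DMSO arrays of their line. IRF9 fell at 250 nM in MDA-MB-468 (log2 change -0.59 ± 0.13, adjusted p = 0.00160), ZR-75-1 (-0.84 ± 0.13, adjusted p = 3.40e-05) and T47D (-0.38 ± 0.13, adjusted p = 0.0248), each ± SE. It also fell at 50 nM in MDA-MB-468 (-0.43 ± 0.13, adjusted p = 0.0310), a call lost when any single array of that comparison was left out and under both other scalings (-0.28 and -0.27). The T47D call at 250 nM ended under both other scalings (-0.26 and -0.19), and the MDA-MB-468 call at 250 nM under quantile normalization (-0.31). Of the 4 IRF9 probe sets, 2 were lower in MDA-MB-468, 2 in ZR-75-1 and 1 in T47D at 250 nM.

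IRF7, the factor that drives type I interferon genes once infection activates it, was the only member called higher in each replicated line at 50 nM, as were 0.522% of all genes. Its intensity in MDA-MB-468 was 206 and 209 in DMSO, 243 and 252 at 50 nM, and 219.5 and 224 at 250 nM. In ZR-75-1 it was 149 and 140.1 in DMSO, 202 and 199 at 50 nM, and 147 and 157 at 250 nM, and in T47D 88.1 and 89.8 in DMSO, 126 and 117 at 50 nM, and 113 and 119 at 250 nM. Every 50 nM array lay above the DMSO arrays of its line. The log2 change at 50 nM was 0.25 ± 0.08 (adjusted p = 0.0333) in MDA-MB-468, 0.47 ± 0.08 (adjusted p = 0.00140) in ZR-75-1 and 0.45 ± 0.08 (adjusted p = 0.00141) in T47D. At 250 nM IRF7 was also higher in T47D (0.38 ± 0.08, adjusted p = 0.000800). In ZR-75-1 the 250 nM arrays overlapped DMSO (0.07 ± 0.08), and the level was lower at 250 nM than at 50 nM by this scaling (-0.40 ± 0.08, adjusted p = 0.000385) but not after centring (-0.17) or quantile normalization (0.10). The MDA-MB-468 call at 50 nM was lost without any single array of the comparison.

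**Figure D4:**
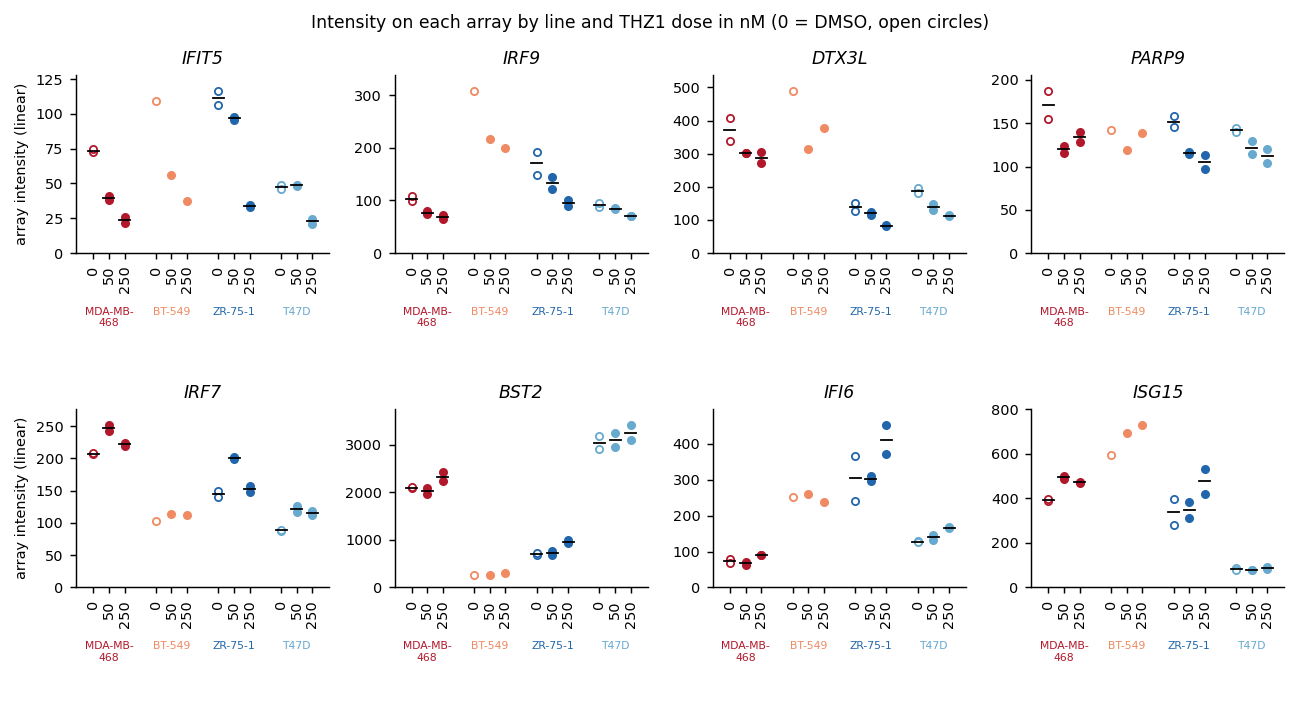
Array intensity of IFIT5, IRF9, DTX3L, PARP9, IRF7, BST2, IFI6 and ISG15 by THZ1 dose (nM, 0 is DMSO) in 4 lines. Each point is 1 array and bars are the mean of 2 arrays. IFIT5 is lowest at 250 nM in every line, and the IRF7 points at 50 nM lie above DMSO in each line.

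IFIT5 showed the largest change of any member. It belongs to the IFIT family of tetratricopeptide-repeat proteins, which bind RNA bearing foreign ends. In MDA-MB-468 its intensity was 72.6 and 74.8 in DMSO, 40.8 and 38.2 at 50 nM, and 25.6 and 21.8 at 250 nM. In ZR-75-1 it was 117 and 106 in DMSO, 97.7 and 95.8 at 50 nM, and 34.5 and 33.3 at 250 nM. In T47D it was 48.6 and 46.4 in DMSO, 48.9 and 48.3 at 50 nM, and 21.2 and 24.6 at 250 nM. The 250 nM arrays fell below all DMSO arrays in each line, and in MDA-MB-468 and T47D neither 250 nM array was above background. IFIT5 fell at least 2.64-fold in MDA-MB-468 (adjusted p = 2.43e-08), 3.28-fold in ZR-75-1 (log2 change -1.71 ± 0.13, adjusted p = 7.40e-09) and at least 1.68-fold in T47D (adjusted p = 4.63e-06). The lower bounds set the dim group at the lowest signal above background or at its own value, whichever was higher. At 50 nM it fell only in MDA-MB-468 among the 3 lines (-0.90 ± 0.13, adjusted p = 0.000112). ZR-75-1 arrays at 50 nM were below DMSO without passing the test (-0.20 ± 0.13, adjusted p = 0.397), and T47D arrays overlapped (0.03 ± 0.13).

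The IFIT5 calls at 250 nM held under both other scalings and without any one of the 18 arrays. A second IFIT5 probe set gave smaller changes, of -0.35 in MDA-MB-468, -1.11 in ZR-75-1 and -0.05 in T47D, and passed the test only in ZR-75-1. The mean of both probe sets, called in each line, changed by -1.41 in ZR-75-1 and -0.55 in T47D. IFIT1, IFIT2 and IFIT3 changed by -0.40 to 0.25 at 250 nM and passed the test in no line in the fit of 18 arrays. IFIT3 was 121 and 123 in DMSO, 91.3 and 101 at 50 nM, and 102 and 96.8 at 250 nM in MDA-MB-468, where its level was highest of the 3 lines and its log2 change at 250 nM was -0.30 ± 0.25 (adjusted p = 0.385). By limma with the 6 MDA-MB-468 arrays alone, IFIT3 was called lower at 250 nM (adjusted p = 0.0448) and 50 nM (-0.34, adjusted p = 0.0495). IFIT2 was called lower at 50 nM in that fit (-0.53, adjusted p = 0.0492). In T47D and ZR-75-1 several IFIT2 and IFIT3 arrays were not above background.

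PARP9 and DTX3L, neighbouring genes read away from each other, were both lower at 250 nM in each replicated line. PARP9 is a macrodomain protein of the ADP-ribosyltransferase family, and DTX3L is the ubiquitin ligase that binds it. DTX3L intensity was 337 and 406 in DMSO, 301 and 303 at 50 nM, and 272 and 305 at 250 nM in MDA-MB-468. In ZR-75-1 it was 150.0 and 127 in DMSO, 115 and 125 at 50 nM, and 82.5 and 83.8 at 250 nM, and in T47D 195 and 180.3 in DMSO, 149 and 130.1 at 50 nM, and 112 and 115 at 250 nM. The 250 nM arrays lay below DMSO in all 3 lines. DTX3L fell, with a log2 change of -0.73 ± 0.11 (adjusted p = 5.28e-05) in T47D, -0.73 ± 0.11 (adjusted p = 3.04e-05) in ZR-75-1 and -0.36 ± 0.11 (adjusted p = 0.0150) in MDA-MB-468, where the call ended under both other scalings (-0.16 and -0.13). In T47D it fell already at 50 nM (-0.43 ± 0.11, adjusted p = 0.0219), a call that ended after centring (-0.39) and with the mean of all probe sets (-0.26). In MDA-MB-468 at 50 nM the brightest probe set missed the threshold (-0.29, adjusted p = 0.0765). A second fitted DTX3L probe set was called lower there (-0.56), as was the mean of all probe sets (-0.39). At 250 nM in T47D the second probe set changed by -0.24 and was not called.

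In MDA-MB-468, PARP9 was 139.5 and 128 at 250 nM, against 155 and 188 in DMSO. In ZR-75-1 it was 113 and 96.8 at 250 nM, against 146 and 158 in DMSO, and in T47D 104 and 120.3 at 250 nM, against 145 and 140.0 in DMSO. The groups did not overlap in any of the 3 lines. Its log2 change was -0.35 ± 0.12 (adjusted p = 0.0227), -0.54 ± 0.12 (adjusted p = 0.000925) and -0.35 ± 0.12 (adjusted p = 0.0225) across MDA-MB-468, ZR-75-1 and T47D. At 50 nM it fell in MDA-MB-468 (-0.51 ± 0.12, adjusted p = 0.00549) and ZR-75-1 (-0.39 ± 0.12, adjusted p = 0.0483), the second of which ended after centring (-0.37). The ZR-75-1 call at 50 nM was also lost with the 6 arrays of the line alone and with the replicate number as a block. It held in 6 of 18 fits that left out 1 array. At 50 nM the mean of all PARP9 probe sets was called in neither MDA-MB-468 (-0.25) nor ZR-75-1 (-0.12). A second fitted PARP9 probe set changed there by 0.0041 and 0.23. No PARP9 call at 250 nM held under centring or quantile normalization, where the changes lay between -0.29 and -0.03, and the second PARP9 probe set changed by 0.14, -0.03 and 0.01. PARP14, whose gene lies on the same chromosome, did not pass the test in any line. Its log2 change at 250 nM was 0.06 in MDA-MB-468, -0.01 in ZR-75-1 and -0.02 in T47D, and 0.50 in ZR-75-1 after quantile normalization.

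MX1 and the RNA sensor IFIH1 passed the test in T47D alone among the 3 lines. MX1 in T47D was 89.7 and 75.5 in DMSO, 64.6 and 56.0 at 50 nM, and 55.1 and 53.9 at 250 nM. It fell at 50 nM (-0.45 ± 0.12, adjusted p = 0.0304), which ended under both other scalings (-0.41 and -0.37), and at 250 nM (-0.60 ± 0.12, adjusted p = 0.000953). In MDA-MB-468, its highest line, MX1 was 261 and 272 in DMSO, 242 and 234 at 50 nM, and 222 and 218 at 250 nM, with every treated array below DMSO and a log2 change at 250 nM that did not pass the test (-0.27 ± 0.12, adjusted p = 0.0920). That MDA-MB-468 change was called by limma with the 6 arrays of the line alone (adjusted p = 0.0186). It was also called in the fit on the mean of all probe sets (adjusted p = 0.0479). MX1 was not above background on any ZR-75-1 array. MX2, a nuclear relative of MX1, was 23.0 and 19.6 in DMSO, 24.8 and 29.6 at 50 nM, and 33.1 and 24.2 at 250 nM in MDA-MB-468, where neither DMSO array was above background. It was called in no line, with log2 changes at 250 nM of 0.41, -0.0032 and -0.26 across MDA-MB-468, ZR-75-1 and T47D.

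IFIH1, the helicase MDA5 that senses long double-stranded RNA, was 135 and 152 in DMSO, 113 and 108 at 50 nM, and 97.8 and 89.3 at 250 nM in T47D, with no overlap between treated and DMSO arrays. It fell at 250 nM there (-0.61 ± 0.12, adjusted p = 0.000548). In MDA-MB-468 it was 157 and 179.6 at 250 nM, against 165 and 177 in DMSO, and in ZR-75-1 177 and 144 at 250 nM, against 177 and 166 in DMSO. Both overlapped (-0.03 ± 0.12 and -0.10 ± 0.12), and quantile normalization turned both above 0, at 0.29 and 0.41. DDX60, a related helicase, changed by -0.19 to 0.08 at 250 nM in the 3 lines and passed the test in none.

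The OAS enzymes, which make the oligoadenylates that activate RNase L, showed no called change. OAS2 and OASL changed by -0.17 to 0.14 at 250 nM. OAS1 and OAS3 were not tested. OAS1 arrays lay between 35.2 and 63.6 over all lines and doses, and OAS3 arrays between 25.9 and 45.8.

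ISG15 rose in ZR-75-1, and HERC5, a ligase that attaches it, passed the test in T47D at a signal near background. ISG15 in ZR-75-1 was 279 and 396 in DMSO, 311 and 383 at 50 nM, and 530.0 and 421 at 250 nM. In MDA-MB-468 it was 386 and 399 in DMSO, 501 and 486 at 50 nM, and 469 and 474 at 250 nM, and in T47D 86.2 and 79.9 in DMSO, 80.3 and 80.4 at 50 nM, and 83.8 and 92.8 at 250 nM. The 250 nM arrays lay above DMSO in ZR-75-1 and MDA-MB-468 and overlapped DMSO in T47D. ISG15 rose at 250 nM in ZR-75-1 (0.51 ± 0.14, adjusted p = 0.00639) and did not pass the test in MDA-MB-468 (0.27 ± 0.14, adjusted p = 0.157). The ZR-75-1 call was lost without the first DMSO array, which had the lower value of the pair (0.25), or without the first 250 nM array (0.34). HERC5, the main ISG15 ligase in human cells, passed the test at 250 nM in T47D (adjusted p = 0.0247), where 1 of 2 DMSO arrays and neither 250 nM array was above background. No size is given for it, and the call ended after centring (adjusted p = 0.0815). HERC6, which carries that activity in mouse, was 58.4 and 50.9 in T47D at 250 nM, against 48.1 and 50.8 in DMSO. It was called in no line, with changes of 0.10 to 0.14 at 250 nM.

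Among the IFI-named members, IFI6 and IFI35 rose at 250 nM in ZR-75-1. IFI6 in ZR-75-1 was 239.7 and 367 in DMSO, 296 and 309.9 at 50 nM, and 452 and 371 at 250 nM, a rise at 250 nM (0.46 ± 0.15, adjusted p = 0.0179) that was lost without the first DMSO array (0.16) or the first 250 nM array (0.32). In T47D it was 167 and 166 at 250 nM, against 129 and 126 in DMSO, and in MDA-MB-468 89.4 and 91.4 at 250 nM, against 79.0 and 67.6 in DMSO. Neither pair overlapped, and neither passed the test (0.39 ± 0.15, adjusted p = 0.0511 and 0.31 ± 0.15, adjusted p = 0.130). Both IFI6 changes were called under both other scalings, at 0.51 and 0.70 in T47D and 0.51 and 0.56 in MDA-MB-468. The T47D change was also called in the fit on the mean of all probe sets (adjusted p = 0.0438). By limma with the 6 arrays of the line alone it was called in T47D (adjusted p = 0.00773) and missed the threshold in ZR-75-1 (adjusted p = 0.0561). IFI35 rose in ZR-75-1, at 114 and 107 at 250 nM, against 82.4 and 72.7 in DMSO (0.51 ± 0.12, adjusted p = 0.00183), and overlapped DMSO in the other lines. Of 2 fitted IFI35 probe sets, 1 was called higher in ZR-75-1, where the changes were 0.21 and 0.51. In T47D 1 of the 2 was also called higher, with changes of 0.03 and 0.27. The brightest one was called in T47D after quantile normalization (0.32). IFI27 and IFI44 were called in no line.

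Among the restriction and nuclear factors, TRIM21 was called lower and BST2, ISG20 and SP100 higher. Each was called in a single replicated line by its brightest probe set with no further scaling. TRIM21, a cytosolic antibody receptor and ubiquitin ligase, was 72.7 and 64.8 in DMSO, 60.4 and 62.2 at 50 nM, and 45.1 and 40.8 at 250 nM in MDA-MB-468 and fell at 250 nM (-0.68 ± 0.13, adjusted p = 0.000648). TRIM21 in ZR-75-1 was 34.4 and 41.6 at 250 nM, against 43.4 and 45.1 in DMSO (-0.23 ± 0.13, adjusted p = 0.175). In T47D it was 52.4 and 61.3 at 250 nM, against 57.5 and 59.9 in DMSO, and the groups overlapped (-0.05 ± 0.13). The MDA-MB-468 call held under both other scalings.

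BST2 in ZR-75-1 was 682 and 732 in DMSO, 672 and 767 at 50 nM, and 995 and 929 at 250 nM, and rose at 250 nM (0.44 ± 0.08, adjusted p = 0.000156). All 3 BST2 probe sets bright enough to be fitted were higher in ZR-75-1, whereas the mean over all 4, the dim one included, was 0.16 and not called. In MDA-MB-468 it was 2231 and 2417 at 250 nM, against 2086 and 2109 in DMSO (0.15 ± 0.08), and in T47D 3410.0 and 3094 at 250 nM, against 3178 and 2909.7 in DMSO (0.10 ± 0.08). In MDA-MB-468, 1 of the 3 fitted BST2 probe sets was called higher at 250 nM (changes up to 0.31). The mean of all BST2 probe sets was also called there (0.22), as was the brightest one after centring (0.35). ISG20 in MDA-MB-468 was 83.3 and 83.6 in DMSO, 81.1 and 76.6 at 50 nM, and 107 and 113 at 250 nM, with a rise at 250 nM only (0.40 ± 0.09, adjusted p = 0.00275).

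SP100, a component of nuclear PML bodies, rose in MDA-MB-468, at 327 and 311 at 250 nM, against 268 and 251 in DMSO (0.30 ± 0.09, adjusted p = 0.0165). It was called in 1 of 5 SP100 probe sets there, and the mean over all 9, those too dim to be fitted included, changed by 0.0041. SAMHD1, which hydrolyses deoxynucleotides, was 114 and 116 at 250 nM, against 97.1 and 99.4 in DMSO, for MDA-MB-468. The ZR-75-1 values were 71.8 and 63.8 at 250 nM, against 60.4 and 56.0 in DMSO. Neither pair overlapped, and neither change passed the test (0.23 ± 0.10, adjusted p = 0.0777 and 0.22 ± 0.10, adjusted p = 0.0734), although both did after centring (0.43 and 0.47). Of 3 fitted SAMHD1 probe sets, 1 was called higher at 250 nM in MDA-MB-468 and 1 in T47D, where changes ran from -0.03 to 0.44. At 50 nM in MDA-MB-468, 2 of the 3 were called higher. The mean of all SAMHD1 probe sets was called in MDA-MB-468 at 50 nM (0.33) and 250 nM (0.25). TAP1 changed by -0.14 to 0.06 at 250 nM and was called in no line.

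The difference in response between lines was tested directly at 250 nM. No member differed between MDA-MB-468 and ZR-75-1 by limma (3 had an unadjusted p under 0.05), against 3.09% of all genes with a lower and 19.9% with a higher response in MDA-MB-468. Between MDA-MB-468 and T47D, 2 members had a lower and 1 a higher response in MDA-MB-468 (8.11% and 6.43% of all genes). They were TRIM21 (-0.63 ± 0.19, adjusted p = 0.0366), IFIT5 (-0.59 ± 0.18, adjusted p = 0.0383) and IFIH1 (0.59 ± 0.17, adjusted p = 0.0289). Between ZR-75-1 and T47D, 1 was lower and 2 higher in ZR-75-1 (19.8% and 2.44% of all genes). They were IFIT5 (-0.66 ± 0.18, adjusted p = 0.0140), BST2 (0.35 ± 0.11, adjusted p = 0.0349) and IFIH1 (0.51 ± 0.17, adjusted p = 0.0405). IFIT5 was not above background at 250 nM in MDA-MB-468 and T47D, so its changes there are lower bounds and neither difference can be told apart from the limit that background sets. The IFIT5 difference from T47D also missed the threshold in MDA-MB-468 after quantile normalization (-0.43). With the mean of all probe sets the IFIH1 differences were 0.04 and 0.12 and the BST2 difference 0.11, none of them called. The counts lower in MDA-MB-468 than in T47D and lower in ZR-75-1 than in T47D both came to 0 after centring, where TRIM21 (-0.55) and IFIT5 (-0.51) against T47D missed the threshold. Leaving out single arrays moved the counts in each direction to between 0 and 3.

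Raising the dose from 50 to 250 nM lowered 2 members and raised 2 in MDA-MB-468 (23.2% and 5.73% of all genes). These were IFIT5 (at least 1.41-fold lower) and TRIM21 (-0.51 ± 0.13), and ISG20 (0.48 ± 0.09) and IFI6 (0.43 ± 0.15). In T47D only IFIT5 passed, at least 1.71-fold lower (27.2% of all genes lower and 4.59% higher). In ZR-75-1, 4 were lower and 5 higher (41.7% and 6.64% of all genes). The lower ones were IFIT5 (-1.51 ± 0.13), DTX3L (-0.53 ± 0.11), IRF9 (-0.49 ± 0.13) and IRF7. Quantile normalization ended the calls of DTX3L (-0.10) and IRF9 (-0.03), and centring those of IRF9 (-0.26) and IRF7 (-0.17). The higher ones were ISG15 (0.45 ± 0.14), IFI6 (0.43 ± 0.15), BST2 (0.42 ± 0.08), IFI35 (0.33 ± 0.12) and MX2 (at least 1.22-fold). MX2 was 34.0 and 31.1 in DMSO, 23.0 and 22.7 at 50 nM, and 33.6 and 31.4 at 250 nM. Neither 50 nM array was above background, and the 250 nM arrays overlapped DMSO.

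BT-549, with 1 array per treatment, has no replicate check and no test. Its median member changed by -0.27 at 50 nM and -0.21 at 250 nM, against -0.04 and 0.01 over all genes. At these doses 20 and 19 of 28 members were below 0, against 56.2% and 49.4% of all genes. IFIT5 was 109 in DMSO, 56.1 at 50 nM and 37.6 at 250 nM, 2.91-fold lower at 250 nM, and was the only member past a 2-fold change (8.94% of all genes were at least 2-fold lower and 0.182% at least 2-fold higher). No member was past 2-fold at 50 nM (3.24% and 0.174% of all genes). IRF9 was 308 in DMSO, 218 at 50 nM and 199 at 250 nM. TRIM21 was 88.7 in DMSO, 56.1 at 50 nM and 46.3 at 250 nM. MX1 was 104 in DMSO, 62.0 at 50 nM and 60.4 at 250 nM, and IFIT2 75.3 in DMSO, 56.2 at 50 nM and 41.6 at 250 nM. The value of each of these 5 genes was below that of DMSO at both doses. IFI27, at 54.3 in DMSO, 79.0 at 50 nM and 83.0 at 250 nM, was the member with the largest higher value. After quantile normalization the median member change at 250 nM was 0.00.

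With each line counted as 1 replicate, including BT-549, no member passed at 50 nM by limma (10 had an unadjusted p under 0.05), where 0.316% of all genes were lower and 0.182% higher. At 250 nM, 7 members were lower and 2 higher (29.9% and 9.48% of all genes). The lower members were IFIT5 (adjusted p = 0.000341), IRF9 (-0.61 ± 0.09, adjusted p = 0.00111), DTX3L (-0.55 ± 0.12, adjusted p = 0.00585), MX1 (adjusted p = 0.00697), TRIM21 (-0.47 ± 0.15, adjusted p = 0.0290), IFIT2 (adjusted p = 0.0350) and PARP9 (-0.32 ± 0.10, adjusted p = 0.0253). No size is given for IFIT5, which was not above background at 250 nM in MDA-MB-468 and T47D, or for MX1, which was not above it on any ZR-75-1 array. None is given for IFIT2 either, as several of its ZR-75-1 and T47D arrays were not above background. IFIT2 reached the brightness filter in 2 of the 12 groups and was brightest in BT-549 under DMSO, which is 1 array. The higher members were ISG15 (0.29 ± 0.09, adjusted p = 0.0370) and BST2 (0.23 ± 0.06, adjusted p = 0.0207). Centring left 3 lower and 8 higher, and quantile normalization 4 lower and 10 higher, against 23.6% and 30.5%, and 22.2% and 32.3%, of all genes. The calls of TRIM21 (-0.31 and -0.33), IFIT2 and PARP9 (-0.16 and 0.02) ended under both, and that of MX1 after centring. The BST2 call ended with the mean of all its probe sets (0.21).

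The wider pathway was described by lists that do not overlap the members. Receptors and kinases had 4 of 10 lower and 2 higher at 250 nM in MDA-MB-468, 6 and 2 in ZR-75-1, and 7 and 2 in T47D, with median changes of -0.05, -0.36 and -0.36. The shares of all genes were 30.3%, 42.8% and 33.7% lower and 9.54%, 9.93% and 9.61% higher across MDA-MB-468, ZR-75-1 and T47D, here and for the lists that follow. They were 21.5%, 31.2% and 25.7% lower and 27.3%, 28.4% and 19.2% higher after centring, and 22.5%, 30.3% and 23.8% lower and 24.2%, 32.8% and 26.3% higher after quantile normalization. Of the receptors and kinases, 2 were then lower in MDA-MB-468 and 4 in ZR-75-1 and in T47D under each of these scalings, with 5, 3 and 3 higher after centring and 4, 3 and 3 after quantile normalization. IFNLR1, the type III interferon receptor chain, was 30.2 and 32.1 at 250 nM, against 163 and 149 in DMSO in MDA-MB-468 (log2 change -2.32 ± 0.17, adjusted p = 1.32e-08). In T47D it was 25.6 and 29.0 at 250 nM, against 133 and 130.3 in DMSO (-2.27 ± 0.17, adjusted p = 2.43e-08), with 1 of the 2 arrays at 250 nM not above background, so the size is limited there. In ZR-75-1 it was at least 1.47-fold lower. IFNGR1, a chain of the type II receptor, fell in each replicated line (-1.07, -1.28 and -0.65 across MDA-MB-468, ZR-75-1 and T47D). IFNAR1, a chain of the type I receptor, fell in ZR-75-1 (-0.95) and T47D (-0.38, a call lost after quantile normalization, at -0.16), with -0.14 and no call in MDA-MB-468. Of the kinases, TYK2 rose in MDA-MB-468 (0.29) and ZR-75-1 (0.24), and JAK1 in ZR-75-1 (0.18) and T47D (0.22).

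Among the other interferon regulatory factors, IRF1 and IRF2 fell in each replicated line, and IRF3 and IRF5 were called in none. After quantile normalization 1, 2 and 2 of the 4 were higher across MDA-MB-468, ZR-75-1 and T47D. The medians of the 4 genes were -0.80 in MDA-MB-468, -0.43 in ZR-75-1 and -0.46 in T47D. IRF1, an activator induced by interferon gamma, was 326 and 315 in DMSO, 149.8 and 171 at 50 nM, and 45.4 and 39.1 at 250 nM in MDA-MB-468. The treated arrays lay below DMSO, and those at 250 nM lowest. The log2 change at 250 nM was -2.93 ± 0.13 in MDA-MB-468, -0.87 ± 0.13 in ZR-75-1 and -0.94 ± 0.13 in T47D. IRF2, which competes with IRF1 for its sites, changed by -1.45 in MDA-MB-468 and -1.36 in T47D on the log2 scale, and fell at least 2.41-fold in ZR-75-1.

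Of 11 nucleic acid sensors and adaptors, 3 were lower in MDA-MB-468, 5 in ZR-75-1 and 3 in T47D, with medians of -0.13, -0.24 and -0.12. One was higher in MDA-MB-468, none in ZR-75-1 and one in T47D. After quantile normalization the lower calls numbered 1, 2 and 3 and the higher ones 1, 1 and 1. TBK1, the kinase that activates IRF3 and IRF7, changed by -1.59, -1.94 and -1.19 in these lines, and the adaptor TRAF3 by -0.50, -1.25 and -0.75. The TRAF3 call in MDA-MB-468 was lost after quantile normalization (-0.18). Of 8 inhibitors, 5, 5 and 4 were lower and none higher, with medians of -0.32, -0.51 and -0.19, and after centring 3, 4 and 2 were lower and 2, 1 and 1 higher. They included the phosphatases PTPN1 (-0.60, -1.07 and -0.32) and PTPN2 (-0.22, -0.64 and -1.14), which remove the phosphates added by JAK kinases. Centring ended the calls of PTPN1 in T47D (-0.20) and PTPN2 in MDA-MB-468 (-0.02), where the mean of all PTPN2 probe sets changed by 0.07.

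The class I presentation list had no lower call at 250 nM and 5, 8 and 4 of 16 genes higher across MDA-MB-468, ZR-75-1 and T47D. The medians were 0.13, 0.24 and 0.14. After centring 10, 12 and 7 were higher, after quantile normalization 4, 13 and 9, and none was lower under either. B2M, the light chain of class I molecules, changed by 0.18, 0.35 and 0.18. TAPBP, which loads peptide onto them, changed by 0.22, 0.46 and 0.30, and HLA-B by 0.20, 0.32 and 0.38. Quantile normalization ended the B2M calls in MDA-MB-468 (0.04) and T47D (0.07) and the HLA-B call in MDA-MB-468 (0.10). Probes of HLA genes can bind transcripts of near-identical relatives. A list of 31 further induced genes had 3 lower and 6 higher in MDA-MB-468, 3 and 7 in ZR-75-1, and 5 and 4 in T47D, with medians of 0.05, 0.03 and 0.09. After quantile normalization 2 were lower in each line and 13, 17 and 15 higher. The membrane protein IFITM3, which blocks virus entry, rose in each replicated line (0.34, 0.44 and 0.24). UBE2L6, the enzyme that passes ISG15 to its ligases, also rose in each of the 3 (0.20, 0.25 and 0.28). PLSCR1, a phospholipid scramblase, fell in each (-0.28, -0.99 and -0.55), with the MDA-MB-468 call lost after centring (-0.08). Of 9 interferon genes, 6 had a probe set and none was bright enough to be tested.

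**Figure D5:**
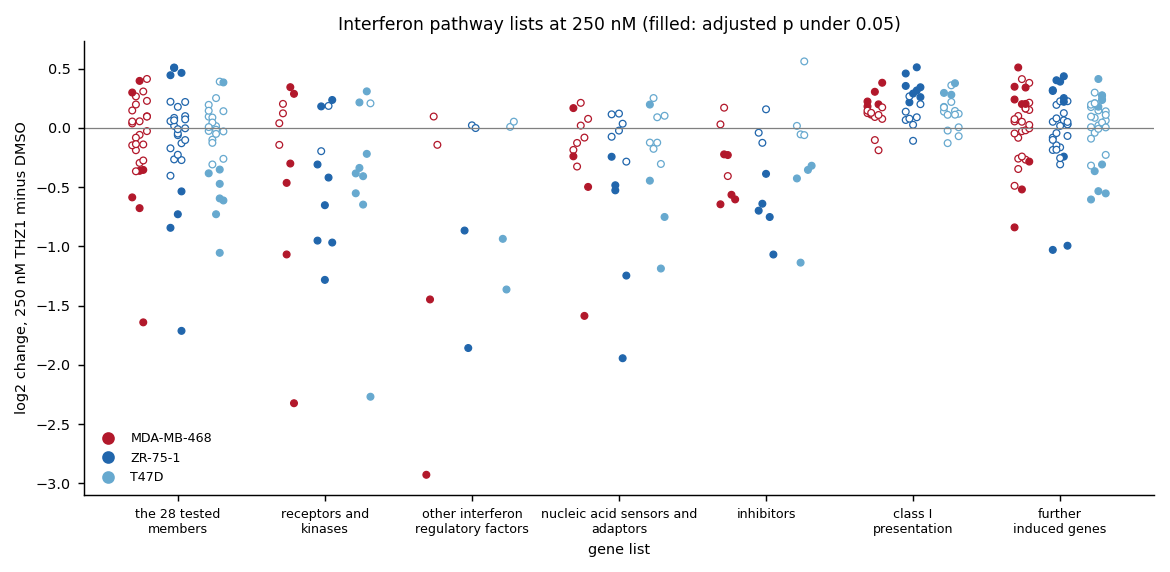
Log2 change at 250 nM of each tested gene in the lists of the wider pathway, in 3 lines, with filled points at adjusted p under 0.05. IRF1 in MDA-MB-468 (-2.93) and IFNLR1 (-2.32 in MDA-MB-468 and -2.27 in T47D) lie lowest, and class I presentation genes have no filled point below 0.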

How the data were processed

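RNA of 4 breast cancer lines was hybridised to 21 PrimeView arrays. The authors deposited linear intensity values for 49395 probe sets per array, made with MAS5 per the submitters' processing notes. The scaling between arrays is not given in sources used here. Per the labels' protocols, ERCC control RNA was spiked in by cell number, and an equal mass of total RNA was then amplified for each array. The table holds 0 probe sets named for ERCC transcripts, so no scaling per cell was made. Each sample's line was read from its title and cell line field. In the samples of ZR-75-1 and T47D the source field reads MDA-MB-468, and it was not followed.

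Of the probe sets, 44994 carried 1 gene symbol, 1832 carried several and 2569 had no entry. The probe set brightest on average stood for its gene. Intensities under 1 were set to 1 and log2 was taken, with no further scaling. Genes were tested where the highest of the 12 group means was at or above 5.84 (log2), the median over the whole table and equal to 57.4 in intensity, which kept 12644. A model of 9 group means over 18 arrays was fitted with limma 3.58.1 in R 4.3.3 (9 residual and 6.18 prior degrees of freedom, intensity trend). Adjusted p is Benjamini-Hochberg over all genes tested, called under 0.05, and errors are standard errors. The 4-line fit used line means with line as a covariate. The fitting step was tested on simulated data.

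The members are all named. Given per array are STAT2, IRF9, IRF7 and ISG15 where measured, and the members with the 4 most negative and 4 most positive moderated statistics at 250 nM in any replicated line. The array values of other members, such as IFIT2, IFIT3 and IFI27, were added after they were seen. From each pathway list, only genes with the 2 most negative or 2 most positive statistics were named. The members and lists were chosen with earlier results of these data known. Alternatives were centring, quantile normalization, a floor of 16, no filter, the mean of all probe sets, the 6 arrays of one line alone, the replicate number as a block, and leaving out each array.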

Additional observations from a re-analysis of the deposited data

Results flagged for a closer look

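The 250 nM response of 4 members differed between lines by limma's test of the difference itself, adjusted over all genes. IFIH1 had a higher response in MDA-MB-468 than in T47D (0.59 on the log2 scale, adjusted p = 0.0289) and in ZR-75-1 than in T47D (0.51, adjusted p = 0.0405). IFIT5 had a lower response in MDA-MB-468 than in T47D (-0.59, adjusted p = 0.0383) and in ZR-75-1 than in T47D (-0.66, adjusted p = 0.0140). No IFIT5 array at 250 nM was above background in MDA-MB-468 or T47D, so these values are limited by background and cannot be told apart from the different DMSO levels. TRIM21 had a lower response in MDA-MB-468 than in T47D (-0.63, adjusted p = 0.0366). BST2 had a higher response in ZR-75-1 than in T47D (0.35, adjusted p = 0.0349). With the mean of all probe sets the IFIH1 and BST2 differences were not called (0.04, 0.12 and 0.11).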

How the results depend on the processing

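The deposited scale, 2 arrays per group and signals near background limit these results, and the cause of each shift below was not tested. DMSO differences between lines kept their counts within 1.5 times under every alternative run.

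Centring each array moved the members called lower at 50 nM to 0 in ZR-75-1 and 0 in T47D, and at 250 nM to 3 in MDA-MB-468, 4 in T47D and 3 over 4 lines. It moved those called higher to 4 at 50 nM and 9 at 250 nM in MDA-MB-468, 10 in ZR-75-1, 2 in T47D and 8 over 4 lines at 250 nM. For 250 against 50 nM in ZR-75-1 it gave 2 lower and 10 higher. For response differences it gave 0 lower and 3 higher for MDA-MB-468 minus T47D, and 0 lower for ZR-75-1 minus T47D.

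Quantile normalization gave 2 lower and 10 higher in MDA-MB-468, 14 higher in ZR-75-1, 5 higher in T47D, and 4 lower and 10 higher over 4 lines at 250 nM. At 50 nM it gave 2 higher in MDA-MB-468 and 1 lower in T47D. For 250 against 50 nM it gave 7 higher in MDA-MB-468, 1 lower and 15 higher in ZR-75-1, and 4 higher in T47D. For response differences it gave 2 lower for MDA-MB-468 minus ZR-75-1, 1 lower and 2 higher for MDA-MB-468 minus T47D, and 5 higher for ZR-75-1 minus T47D. The BT-549 median became -0.16 at 50 nM and 0.000487 at 250 nM. At 250 nM against DMSO it reversed IFIH1 in MDA-MB-468 (0.29) and ZR-75-1 (0.41), PARP14 in ZR-75-1 (0.50) and over 4 lines (0.26), PARP9 over 4 lines (0.022), SAMHD1 in T47D (0.29), IRF5 (0.48) and PTPN11 (0.17) in ZR-75-1, and PIAS2 in T47D (0.26) and ZR-75-1 (0.36). For 250 against 50 nM in ZR-75-1 it reversed IRF7 (0.10), PARP9 (0.33), SP100 (0.40) and TAP1 (0.36). Centring reversed PTPN11 in ZR-75-1 (0.21).

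The mean of all probe sets gave 2 higher in MDA-MB-468, 0 lower in ZR-75-1 and 1 lower in T47D at 50 nM. It gave 4 higher in MDA-MB-468, 2 in T47D and 4 over 4 lines at 250 nM, and 3 higher in ZR-75-1 and 1 in T47D for 250 against 50 nM. For response differences it gave 1 lower for MDA-MB-468 minus ZR-75-1, and 2 lower and 0 higher for ZR-75-1 minus T47D. It reversed IFIH1 for 250 against 50 nM in MDA-MB-468 (-0.59) and ZR-75-1 (-0.40) and PTPN2 at 250 nM in MDA-MB-468 (0.068), and moved the BT-549 median at 50 nM to -0.18.

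Without the filter, 50 nM gave 0 higher in MDA-MB-468 and 0 lower in ZR-75-1, 250 against 50 nM gave 1 higher in MDA-MB-468, and the 4 lines at 250 nM gave 1 higher. Response differences then had 0 lower for MDA-MB-468 minus T47D and 1 higher for ZR-75-1 minus T47D. The floor of 16 gave 1 higher for 250 against 50 nM in MDA-MB-468. The 6 arrays of a line alone gave 5 lower in MDA-MB-468, 0 in ZR-75-1 and 1 in T47D at 50 nM, 2 higher in T47D at 250 nM, and 2 higher in ZR-75-1 and 2 lower in T47D for 250 against 50 nM.

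With the replicate block, 50 nM gave 0 higher in MDA-MB-468 and 0 lower in ZR-75-1, 250 against 50 nM gave 2 lower in T47D, and response differences gave 1 lower for MDA-MB-468 minus ZR-75-1 and 1 lower for MDA-MB-468 minus T47D. Same-numbered arrays deviated together at r of -0.22 to 0.291 across genes, and the labels do not pair them.

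Leaving out each of 18 arrays, members called lower ranged from 1 to 4 in MDA-MB-468, 0 to 1 in ZR-75-1 and 0 to 3 in T47D at 50 nM, and 3 to 5, 4 to 4 and 4 to 7 at 250 nM. Those called higher ranged from 0 to 1, 1 to 1 and 1 to 1 at 50 nM, and 1 to 3, 2 to 5 and 1 to 2 at 250 nM. For 250 against 50 nM, 1 to 2, 3 to 4 and 1 to 2 were lower, and 1 to 2, 1 to 5 and 0 to 0 higher. Response differences gave 0 to 1 lower and 0 to 1 higher for MDA-MB-468 minus ZR-75-1, 0 to 2 and 0 to 1 for MDA-MB-468 minus T47D, and 0 to 1 and 0 to 3 for ZR-75-1 minus T47D. Calls lost without a single array, besides those given above, were PARP9 and SP100 at 250 nM and PARP9 at 50 nM in MDA-MB-468, IRF9 and PARP9 at 250 nM and MX1 and DTX3L at 50 nM in T47D, DTX3L at 250 nM in MDA-MB-468, HERC5 at 250 nM in T47D, and PARP9 at 50 nM in ZR-75-1.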
